A study of Pseudotaxus chienii and Amentotaxus argotaenia and Torreya grandis with 9 samples.

Results

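The 84 components described here are clusters of assembled transcripts in which Pseudotaxus chienii used a different leading feature from the one that led in both Amentotaxus argotaenia and Torreya grandis. A component is a set of features of the Trinity transcript assembly whose identifiers differ only in the final gene number, and the leader is the feature with the highest mean level in a species. The 84 were selected from 42956 components, which together hold 88609 features. A component was included if its features summed to a mean of at least 100 TPM in each of the 3 species and 1 feature held at least 80% of that sum in each. The leader had to be the same feature in A. argotaenia and T. grandis and another one in P. chienii. TPM is a length-normalised unit of transcript level with nearly the same total in every library. Because the species means themselves chose the components, the leaders and their shares are given below as a description, without a test.

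All 3 species are conifers of the yew family, Taxaceae. P. chienii was labelled as taxol-producing, and A. argotaenia and T. grandis were labelled as non-producing. With 1 species in the producing group, phenotype and species cannot be told apart. RNA came from twigs, taken as wood plus needles, of plants aged 3 years, with 3 libraries per species and 9 in all. No label says whether a species' 3 libraries are 3 trees, and p-values therefore rest on the variation among these libraries alone, possibly technical variation. TPM keeps no read count, so depth is unknown.

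Taxol is a diterpenoid that yews make from the common precursor of diterpenoids, and it is used as an anticancer drug. Trinity builds transcripts from reads without a genome, groups contigs that overlap in sequence into components and splits each component into numbered genes. Alleles and gene copies can fall into 1 component and appear there as separate features, and so can counterparts from different species where their reads are assembled together. Which species' reads went into this assembly is not given in the labels or files, which limits how the counts of leaders can be read. The files used here pair no identifier with a gene name, so no function is given for any feature, the tissue could not be checked against marker genes, and no sequence was compared.

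P. chienii was the species that most often had a leader of its own. Of the 42956 components, 536 reached 100 TPM in each species and 364 of these also had a feature with 80% of the sum in each species. In 57 of the 364 the component held a single feature, so its leader could not differ. Among the remaining 307, P. chienii stood apart in 84, or 27.4%. A. argotaenia stood apart in 6 and T. grandis in 4, while 13 components had 3 different leaders and 200 had 1 leader in all species. At a floor of 10 TPM in place of 100, P. chienii stood apart in 532 of 1861 components with several features, or 28.6%, A. argotaenia in 33 and T. grandis in 41. At 200 TPM it stood apart in 30 of 115, or 26.1%, with 1 component each for A. argotaenia and T. grandis. The share for P. chienii thus lay between 26.0% and 28.6% at the 5 floors tried. Components at a higher floor are all among those at a lower one, so the 5 shares are not separate checks. At 100 TPM with no condition on the leader's share, P. chienii stood apart in 28.4%, A. argotaenia in 4.38% and T. grandis in 3.55%. There 8.77% had 3 different leaders. These counts are the rule applied to each species in turn, with no test.

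**Figure D1:**
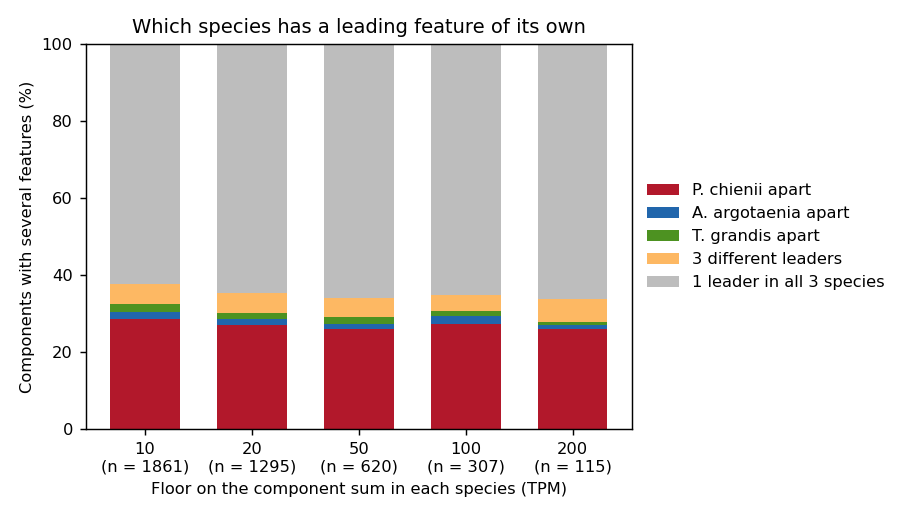
Components with several features, in which 1 feature held at least 80% of the sum in each species, are divided by which species had a leader of its own (y axis, percent), at 5 floors on the component sum (x axis, TPM). The share for P. chienii stays between 26.0% and 28.6%, and those for A. argotaenia and T. grandis stay at or below 2.20%. Components at a higher floor are all among those at a lower one.

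The exchange of leaders was close to complete. The median share of the leader was 98.6% in P. chienii twigs, 99.2% in A. argotaenia twigs and 99.3% in T. grandis. The leader held 95% or more in all 3 species in 45 components and 99% or more in 14. In P. chienii the leader of the other species held a median of 0.785% of the component. The P. chienii leader held a median of 0.173% of the component in A. argotaenia twigs and 0.252% in T. grandis.

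Single libraries showed the same leaders as the species means, which are averages of these same libraries. In all 756 combinations of component and library the leading feature of the species was the highest in that library. Its share was at least 80% in 744 of them and under 80% in 12, which belong to 9 components. The lowest was 57.1%, in A. argotaenia replicate 1 for TRINITY_DN50567_c0. There the shared leader was at 52.1, 326 and 55.1 TPM in replicates 1, 2 and 3. All conditions of the rule were met in each of the 9 libraries by 57 of the 84 components, and 22 components had at least 1 library with a sum under 100 TPM.

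**Figure D2:**
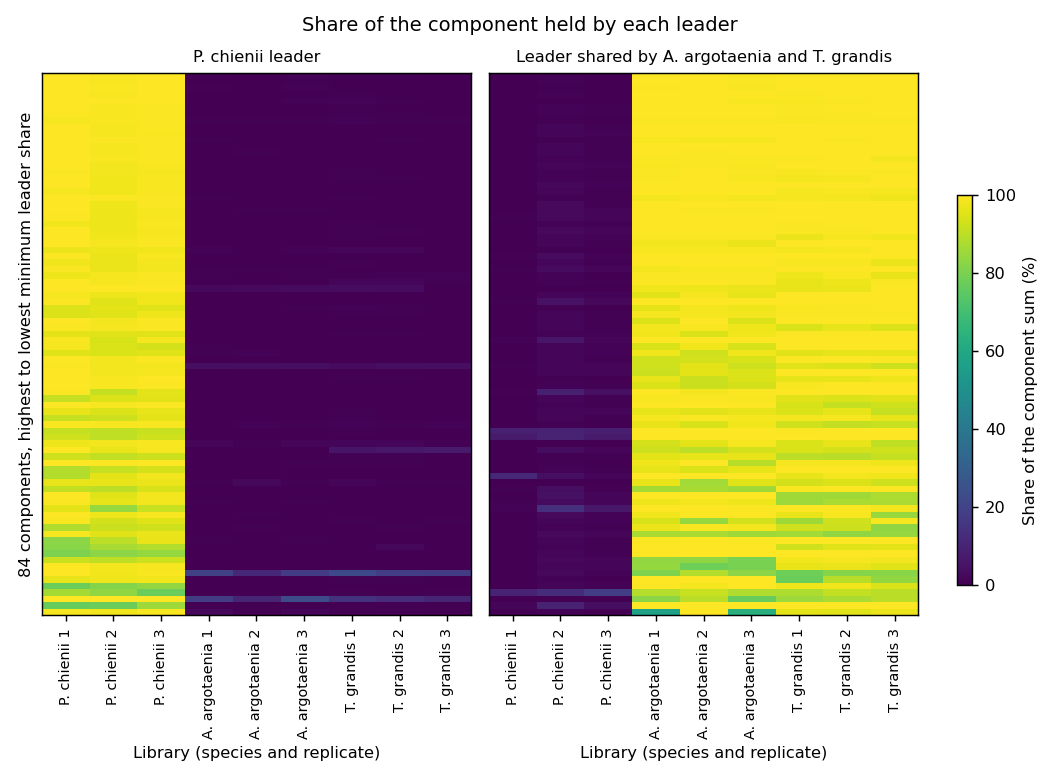
Colour gives the share of the component sum (percent) held by the P. chienii leader (left) and by the leader shared by A. argotaenia and T. grandis (right), for the 84 components in rows and the 9 libraries in columns. Every row changes leader between the P. chienii libraries and the other 6, and the faint rows outside the bright blocks are the components in which the other leader was also present.

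The components near the limits of the rule show how the selection was made. Just inside the 80% limit were TRINITY_DN50588_c0, with a leader share of 80.2% in P. chienii, and TRINITY_DN44399_c1, with 80.5% in A. argotaenia. Just outside it were TRINITY_DN37112_c1 at 79.7% and TRINITY_DN48096_c2 at 79.3%, both in P. chienii. The lowest sums inside the 100 TPM floor were those of TRINITY_DN44021_c0 and TRINITY_DN41101_c0 in A. argotaenia, at 100.4 and 101 TPM. The sums of TRINITY_DN35688_c0 and TRINITY_DN41991_c1 in P. chienii were just short of it, at 99.98 TPM each. Above the floor, 136 components had a P. chienii leader of its own and a common leader in the others, and 52 of these missed the 80% limit. The limit was missed in P. chienii by 37 of the 52, in A. argotaenia by 28 and in T. grandis by 28.

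From the 84, 6 components were chosen for the highest mean level over the species. In TRINITY_DN43094_c0, the most abundant of them, the P. chienii leader TRINITY_DN43094_c0_g3 was at 4198, 3915 and 3981 TPM in P. chienii twigs, at 4.82, 4.56 and 5.51 TPM in A. argotaenia twigs and at 11.3, 7.31 and 4.87 TPM in T. grandis. The shared leader TRINITY_DN43094_c0_g2 was at 6.57, 41.04 and 21.99 TPM in P. chienii twigs, at 5333, 4658 and 5030 TPM in A. argotaenia twigs and at 2813, 3150 and 2818 TPM in T. grandis. For either feature the lowest library in which it led was far above the highest library in which it did not, a separation that the rule itself selects for. Its sum was called different in none of the 3 comparisons described below.

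The other abundant components divided in the same way. In TRINITY_DN49051_c2 the P. chienii leader was at 874, 1002 and 1121 TPM in P. chienii twigs, and in the other 6 libraries it lay between 0.88 and 4.75 TPM. Its shared leader was at 2.77, 27.1 and 14.03 TPM in P. chienii twigs, at 2891, 2466 and 2900 TPM in A. argotaenia twigs and at 738, 817 and 794 TPM in T. grandis. The highest P. chienii library of the shared leader was thus far below the lowest library of the species it led, which the rule again selects for. TRINITY_DN38814_c0 summed to 1058, 1353 and 1997 TPM in P. chienii twigs, to 3449, 1823 and 2295 TPM in A. argotaenia twigs and to 1022, 938 and 864 TPM in T. grandis. TRINITY_DN36955_c0 summed to 1641, 1764 and 1873 TPM in P. chienii twigs, to 1072, 1010 and 824 TPM in A. argotaenia twigs and to 1601, 1772 and 1115 TPM in T. grandis. P. chienii overlapped A. argotaenia but not T. grandis in the sum of TRINITY_DN38814_c0, and T. grandis but not A. argotaenia in that of TRINITY_DN36955_c0. TRINITY_DN40833_c0 summed to 974, 1157 and 1237 TPM in P. chienii twigs, to 1675, 1233 and 1500 TPM in A. argotaenia twigs and to 1661, 1512 and 1406 TPM in T. grandis. Its highest P. chienii library was just above the lowest A. argotaenia library and below all of T. grandis.

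The component sums were then compared between species. The rule set a floor on these sums but no difference between species. Each leader held at least 80% of the sum, so P. chienii against another species was mainly its leader against a different feature. How far the assembled lengths of these features enter such differences was not tested. Sums were tested by limma on log2(TPM + 1) over 39423 components, and a difference was called where the Benjamini-Hochberg adjusted p was below 0.05 and the change 2-fold or more. In bulk tissue a lower sum may stand for fewer cells of a type or for less RNA per cell, and these cannot be told apart. P. chienii was called different from A. argotaenia in 26 of the 84 components, 17 higher and 9 lower, a share of 31.0%. The call was made in 53.7% of all tested components, 25.7% higher and 28.1% lower, and in 27.4% of the 536 components at the floor, 16.2% higher and 11.2% lower. Against T. grandis 29 of the 84 were called, 17 higher and 12 lower in P. chienii, a share of 34.5%. The background was 48.4% of all tested components, 26.5% higher and 21.9% lower, and 29.5% of those at the floor, 16.4% higher and 13.1% lower. After trimmed-mean scaling the calls against T. grandis were 13 higher and 14 lower. Shares over all components under this scaling are not given, so no turn of direction is read from them. Both comparisons use the same P. chienii libraries, and nothing particular to the 84 components is read from these counts and shares.

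The median log2 fold change over the 84 sums was 0.19 for P. chienii against A. argotaenia and 0.08 for P. chienii against T. grandis. Over the 536 components at the floor the medians were 0.08 and -0.06. No sum comparison made a call in 38 of the 84 components, and 46 were called in at least 1 of the 3. The matching shares over all tested components were not computed, so nothing particular to the 84 is read from these counts. The 3 species means of a component spanned less than 2-fold in 36 of the 84, or 42.9%, and in 47.8% of those at the floor. They spanned more than 4-fold in 12 of the 84, for which no share at the floor was computed.

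**Figure D3:**
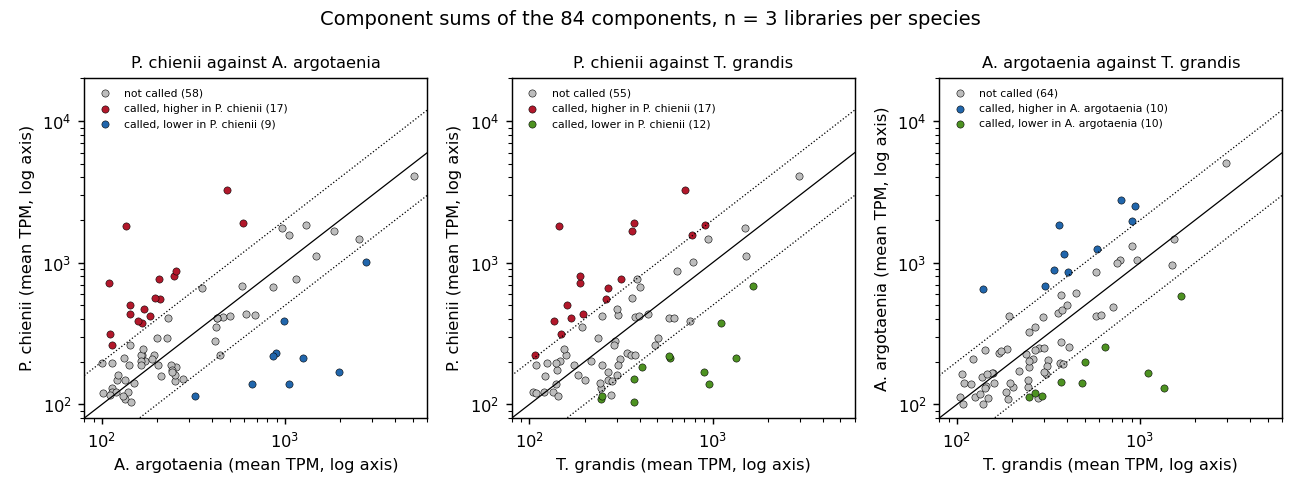
Each point is 1 of the 84 components at its mean sum (TPM, log axes, n = 3 libraries) in the species compared, coloured by the call, with the line of equal level and dotted lines at 2-fold. P. chienii had 17 components called higher and 9 lower against A. argotaenia, 17 higher and 12 lower against T. grandis, and A. argotaenia had 10 higher and 10 lower against T. grandis.

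In 11 components the whole sum was called higher in P. chienii than in both other species, and in 5 it was called lower. Of all tested components 20.1% were called higher and 10% lower in both, and of the 536 at the floor 7.84% and 4.1%. The largest rise was that of TRINITY_DN43674_c1, which summed to 1096, 2098 and 2223 TPM in P. chienii twigs, to 156, 108 and 140 TPM in A. argotaenia twigs and to 132, 151 and 152 TPM in T. grandis. Every P. chienii library was above every other library. The log2 fold change was 3.69 ± 0.27 (SE; adjusted p = 4.72e-06, limma) against A. argotaenia and 3.57 ± 0.27 (SE; adjusted p = 6.20e-06, limma) against T. grandis, so both the leader and the level of this component differed from the other species.

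TRINITY_DN40981_c0 summed to 3281, 3107 and 3436 TPM in P. chienii twigs, to 720, 149 and 582 TPM in A. argotaenia twigs and to 668, 889 and 572 TPM in T. grandis. Its log2 fold change was 3.04 ± 0.52 (SE; adjusted p = 0.000858, limma) against A. argotaenia, where replicate 2 was the low library, and 2.23 ± 0.52 (SE; adjusted p = 0.00562, limma) against T. grandis. The P. chienii libraries lay close together and above all others. TRINITY_DN36954_c1 summed to 426, 856 and 892 TPM in P. chienii twigs, to 140.2, 79.8 and 107 TPM in A. argotaenia twigs and to 215, 167 and 188 TPM in T. grandis. It rose by log2 fold changes of 2.68 ± 0.31 and 1.86 ± 0.31 (SE; adjusted p = 7.57e-05 and 0.000819, limma) against A. argotaenia and T. grandis. No library of another species reached the lowest P. chienii library. TRINITY_DN42838_c0 summed to 2356, 1684 and 1696 TPM in P. chienii twigs, to 648, 393 and 731 TPM in A. argotaenia twigs and to 432, 382 and 298 TPM in T. grandis. Its log2 fold changes were 1.72 ± 0.27 and 2.36 ± 0.27 (SE; adjusted p = 0.000465 and 7.32e-05, limma). The other 7 components called higher in both had log2 fold changes between 1.06 and 2.08.

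Among the sums called lower in P. chienii, TRINITY_DN39240_c1 stood at 207, 135 and 162 TPM in P. chienii twigs, at 1942, 2086 and 1862 TPM in A. argotaenia twigs and at 972, 922 and 808 TPM in T. grandis. The log2 fold changes were -3.56 ± 0.17 (SE; adjusted p = 7.27e-07, limma) against A. argotaenia and -2.43 ± 0.17 (SE; adjusted p = 4.29e-06, limma) against T. grandis. Here the 3 species formed separate levels, with P. chienii lowest. TRINITY_DN50588_c0 stood at 159, 87.97 and 170 TPM in P. chienii twigs, at 918, 1229 and 994 TPM in A. argotaenia twigs and at 875, 1013 and 999 TPM in T. grandis. It fell by 2.95 ± 0.25 and 2.84 ± 0.25 on the log2 scale (SE; adjusted p = 1.11e-05 and 1.56e-05, limma). Its remaining feature, which led in no species, made up 15.7% of the sum in P. chienii.

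TRINITY_DN37527_c0 was at 263, 204 and 173 TPM in P. chienii twigs, at 1036, 1633 and 1087 TPM in A. argotaenia twigs and at 618, 606 and 527 TPM in T. grandis, with log2 fold changes of -2.54 ± 0.22 and -1.47 ± 0.22 (SE; adjusted p = 1.23e-05 and 0.000418, limma). Its P. chienii leader was listed at 0 in all 3 A. argotaenia libraries. TRINITY_DN42011_c0 was at 227, 203 and 231 TPM in P. chienii twigs, at 475, 1065 and 1033 TPM in A. argotaenia twigs and at 592, 555 and 588 TPM in T. grandis, with log2 fold changes of -1.87 ± 0.29 and -1.39 ± 0.29 (SE; adjusted p = 0.000421 and 0.00272, limma). The low A. argotaenia library of this component, replicate 1, was still above every P. chienii library. The fifth component called lower in both, TRINITY_DN44357_c0, had log2 fold changes of -1.50 ± 0.18 and -1.13 ± 0.18 (SE). For the 4 rises and the first 4 falls no call was lost when any single library was left out.

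**Figure D4:**
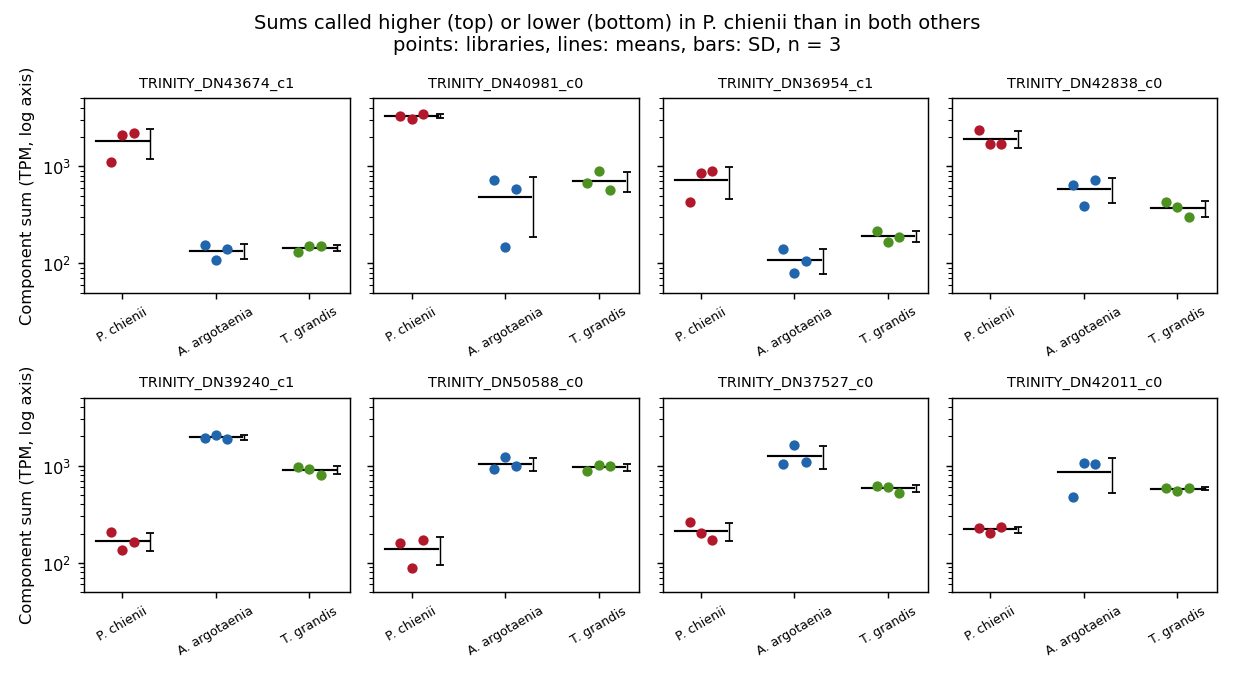
Component sums (TPM, log axis) in the 9 libraries are shown for the 4 largest rises (top) and the 4 largest falls (bottom) among components called in P. chienii against both other species, with means and SD (n = 3). The P. chienii libraries of TRINITY_DN43674_c1 lie between 1096 and 2223 TPM, above all 6 others, and those of TRINITY_DN39240_c1 lie between 135 and 207 TPM, below all 6 others.

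Other components had different leaders at nearly the same sum. The closest was TRINITY_DN41517_c0, at 107.97, 126 and 133 TPM in P. chienii twigs, 115, 124 and 117 TPM in A. argotaenia twigs and 135, 136 and 132 TPM in T. grandis. The species means spanned 1.13-fold. In it the P. chienii leader was at 107.8, 125 and 132 TPM in P. chienii twigs and at no more than 0.48 TPM elsewhere, and the shared leader was at no more than 1.63 TPM in P. chienii twigs and between 115 and 136 TPM elsewhere. TRINITY_DN42153_c1 averaged 123 ± 21.5 TPM in P. chienii twigs (SD, n = 3), 139 ± 11.2 TPM in A. argotaenia twigs and 119 ± 11.8 TPM in T. grandis. TRINITY_DN39884_c0 averaged 122 ± 7.03 TPM, 113 ± 7.44 TPM and 104 ± 6.54 TPM in the same order of species. TRINITY_DN41101_c0 averaged 121 ± 4.68 TPM in P. chienii twigs, 101 ± 7.88 TPM in A. argotaenia twigs and 108 ± 14.0 TPM in T. grandis. These 4 were picked for their closeness, so their small differences carry no test.

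A. argotaenia and T. grandis shared the leader of each component, and the rule did not fix which of them had more of it. Tested as a feature by limma over 75926 features, the shared leader was called different in 13 of the 84 components, 5 higher and 8 lower in A. argotaenia. This is 15.5%, against 47.5% of all tested features, 27.5% higher and 20% lower. Of the 851 features at 80 TPM or more in both species 23% were called, 7.64% higher and 15.4% lower. With quantile-normalised values 8 were higher and 7 were lower in A. argotaenia. The background shares above are not for quantile-normalised values, and none are given for these, so no turn of direction is read from these counts. The same comparison on component sums called 20 of the 84, 10 higher and 10 lower, or 23.8%. The background was 42.3% of all tested components, 24.8% higher and 17.5% lower, and 27.2% of those at the floor, 10.4% higher and 16.8% lower. The count for the leader was 20 without P. chienii replicate 1, 7 without A. argotaenia replicate 1 and 8 without T. grandis replicate 1. In this fit the spread includes the P. chienii libraries, in which the shared leader varied at low levels, and with A. argotaenia and T. grandis alone the count was 19. The background features were not chosen to be low in P. chienii, so 15.5% is not directly comparable with 47.5% or 23%. No background share is given for the counts with other libraries. Nothing particular to the 84 is read from the calls of the leader.

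TRINITY_DN50977_c2 had the largest rise of a shared leader, at 1675, 2000.0 and 1877 TPM in A. argotaenia twigs and 358, 400 and 301 TPM in T. grandis (log2 fold change 2.39 ± 0.48, SE; limma adjusted p = 0.00256). Its P. chienii leader was at 1577, 1697 and 1733 TPM in P. chienii twigs, and the sums of P. chienii and A. argotaenia overlapped while those of T. grandis lay below both. TRINITY_DN44816_c0 had its shared leader at 388, 745 and 816 TPM in A. argotaenia twigs and 147, 138 and 132 TPM in T. grandis (log2 fold change 2.15 ± 0.45, SE; limma adjusted p = 0.00314). In P. chienii its leader was at 123, 149.99 and 139 TPM, overlapping the T. grandis levels of the shared leader. For TRINITY_DN49051_c2, whose values are given above, the log2 fold change was 1.81 ± 0.61 (SE; adjusted p = 0.0349, limma). That call for the leader was lost without P. chienii replicate 3 and without any single A. argotaenia or T. grandis library, while the call for the sum was kept. The SE of a shared leader also holds its spread at low levels in P. chienii, and the SE for the sum of this component was 0.16.

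The largest fall was that of TRINITY_DN47109_c1, with a shared leader at 74.2, 238 and 73.6 TPM in A. argotaenia twigs and 699.7, 1269 and 1546 TPM in T. grandis (log2 fold change -3.34 ± 0.55, SE; limma adjusted p = 0.000822). Replicate 2 was the high library in A. argotaenia and was still below all of T. grandis. The component reached the floor in A. argotaenia only through this library. TRINITY_DN36231_c0 had its shared leader at 199.6, 92.7 and 203 TPM in A. argotaenia twigs and 1322, 998 and 1012 TPM in T. grandis (log2 fold change -2.82 ± 0.54, SE; limma adjusted p = 0.00195). P. chienii lay between them, with its own leader at 405, 334 and 366 TPM. TRINITY_DN43972_c0 had its shared leader at 155, 109.9 and 158 TPM in A. argotaenia twigs and 464, 492 and 496 TPM in T. grandis (log2 fold change -1.79 ± 0.37, SE; limma adjusted p = 0.00295). Its P. chienii leader, at 269, 241 and 265 TPM in P. chienii twigs, was again between the other species.

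Libraries of a species were not equally alike. P. chienii replicate 1, A. argotaenia replicate 2 and T. grandis replicate 3 correlated least with the other libraries of their species over all features. These same libraries had the lowest sum of their species in 50, 48 and 46 of the 84 components. The coefficient of variation of the sum over the 3 libraries had a median of 12.7% in P. chienii twigs, 14.5% in A. argotaenia twigs and 9.57% in T. grandis. Over the 536 components at the floor the medians were 11.7%, 14.8% and 9.80%. It exceeded 50% in 7 of the 84 components, each time in A. argotaenia and each time with replicate 2 farthest from the median.

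Of those 7, A. argotaenia replicate 2 was higher in 4 and lower in 3. TRINITY_DN49632_c0 summed to 10.2, 297 and 23.7 TPM in replicates 1, 2 and 3. TRINITY_DN47109_c1 summed to 76.1, 242 and 75.4 TPM and TRINITY_DN50567_c0 to 91.3, 328 and 87.6 TPM. Each of these components reached the floor in A. argotaenia only through replicate 2. TRINITY_DN38072_c1 summed to 111, 427 and 212 TPM in A. argotaenia. On the lower side, TRINITY_DN50169_c0 summed to 192, 67.3 and 231 TPM and TRINITY_DN46947_c0 to 247, 81.2 and 271 TPM. Without A. argotaenia replicate 2 the rule chose 81 components, 80 of them among the 84.

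Most leaders were also listed at a low level in the species they did not lead. The P. chienii leader of TRINITY_DN37527_c0 was listed at 0 in all A. argotaenia libraries and that of TRINITY_DN38072_c1 at 0 in all T. grandis libraries, while a few leaders, described further on, were not low. In the P. chienii libraries the shared leader had a median level of 0.176%, 1.46% and 0.709% of its mean in A. argotaenia and T. grandis, in replicates 1, 2 and 3. The quartiles in replicate 2 were 1.19% and 1.63%. In 79 of the 84 components replicate 1 was lowest and replicate 2 highest, so the order of the libraries was the same in nearly all components. The P. chienii leader had a median of 0.159%, 0.126% and 0.189% of its P. chienii mean in A. argotaenia replicates 1, 2 and 3. In T. grandis the medians were 0.322%, 0.256% and 0.118%, and replicate 3 was lowest and replicate 1 highest in 53 components. Across the 84 components, Pearson's r on the log2 scale between the shared leader's level in P. chienii replicates 1, 2 and 3 and its mean in A. argotaenia was 0.491, 0.760 and 0.691. With its mean in T. grandis r was 0.479, 0.691 and 0.657. For the P. chienii leader, r between its level in a library of the other species and its P. chienii mean ran from 0.454 to 0.627 over the 6 libraries. These correlations run across components that share a library and are given as a description. P. chienii replicate 1 also had the most features at 0 of its species, 43114 against 31782 and 35062 in replicates 2 and 3, and T. grandis replicate 3 had 41328 against 34038 and 37153 in replicates 1 and 2. The part of this difference in the low levels was not tested.

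A few components departed from these low levels, and in them the other leader exceeded 5% of its level where it led. In P. chienii there were 3. The shared leader of TRINITY_DN40944_c1 was at 46.06, 57.5 and 68.8 TPM in P. chienii twigs, which is 38.1% ± 7.53 (SD, n = 3) of its mean in the species it led. That of TRINITY_DN42205_c2 was at 20.6, 17.4 and 15.9 TPM, or 11.6% ± 1.56, and that of TRINITY_DN50169_c0 at 10.5, 21.1 and 14.02 TPM, or 6.50% ± 2.33. Replicate 1 was the highest of the 3 libraries for TRINITY_DN42205_c2 and the lowest for the other two.

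The P. chienii leader exceeded 5% elsewhere in 4 components. In TRINITY_DN44083_c0 it was at 133, 135 and 183 TPM in P. chienii twigs, at 54.0, 31.6 and 47.3 TPM in A. argotaenia twigs and at 75.7, 78.1 and 61.2 TPM in T. grandis. This component has 2 features only, and its shared leader stayed at 2.86 TPM or less in P. chienii. TRINITY_DN41208_c0 differed between the other species, since its P. chienii leader was at 104, 106 and 97.7 TPM in P. chienii twigs, at 0.22, 0.29 and 0.54 TPM in A. argotaenia twigs and at 21.04, 25.9 and 24.8 TPM in T. grandis. In TRINITY_DN38675_c0 the P. chienii leader was at 30.8, 31.1 and 31.3 TPM in A. argotaenia twigs and at 45.5, 39.3 and 34.5 TPM in T. grandis, or 5.23% ± 0.728 of its P. chienii level in T. grandis. That of TRINITY_DN43149_c0 was at 7.75, 6.86 and 7.82 TPM in A. argotaenia twigs and at 13.98, 15.95 and 10.68 TPM in T. grandis, or 6.14% ± 1.21 in T. grandis.

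**Figure D5:**
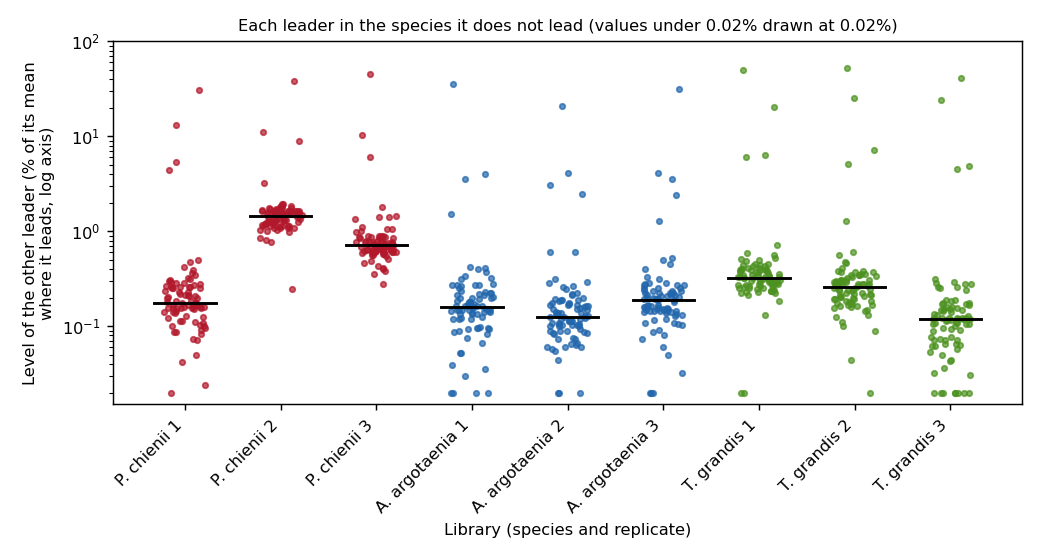
Each point is 1 of the 84 components in 1 library (x axis), with the level of the leader of the other species as a percent of its mean where it leads (y axis, log axis) and the median as a line. P. chienii replicate 2 has the highest median, 1.46%, and a mean over 5% is seen for 3 components in P. chienii, for 1 in A. argotaenia and for 4 in T. grandis. The lowest points are drawn at the limit given in the title.

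The 84 components held 344 features, of which 168 were leaders and 176 led in no species. The number of features per component ran from 2 to 10 with a median of 4, and 23 components consisted of the 2 leaders alone. In the 200 components with several features and 1 leader in all species the median was 3.5. Of the 176 features that led nowhere, 33 reached 10 TPM in some species and 5 reached 50 TPM. The highest, TRINITY_DN47109_c1_g3, stood at 0.753 ± 0.638 TPM in P. chienii twigs (SD, n = 3), 2.31 ± 1.42 TPM in A. argotaenia twigs and 171 ± 52.8 TPM in T. grandis and was abundant in T. grandis alone. TRINITY_DN43475_c1_g1 was at 6.06 ± 1.71 TPM in P. chienii twigs and at 116 ± 10.1 TPM and 96.96 ± 17.2 TPM in A. argotaenia twigs and T. grandis. TRINITY_DN41455_c0_g6, in 1 of the components with 10 features, was at 48.8 ± 3.97 TPM in P. chienii twigs, 83.1 ± 6.11 TPM in A. argotaenia twigs and 8.12 ± 1.12 TPM in T. grandis.

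That component, TRINITY_DN41455_c0, summed to 672, 683 and 707 TPM in P. chienii twigs, to 599, 584 and 561 TPM in A. argotaenia twigs and to 1699, 1686 and 1614 TPM in T. grandis. P. chienii was called lower than T. grandis (log2 fold change -1.28 ± 0.11, SE; limma adjusted p = 1.70e-05), and was not called against A. argotaenia. TRINITY_DN39849_c0, also with 10 features, averaged 414 ± 24.4 TPM in P. chienii twigs (SD, n = 3), 461 ± 94.7 TPM in A. argotaenia twigs and 375 ± 34.9 TPM in T. grandis, and was called in no comparison.

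Across the 84 components the sums of the species were related. Pearson's r of the log2 sums was 0.563 for P. chienii with A. argotaenia, 0.513 for P. chienii with T. grandis and 0.694 for A. argotaenia with T. grandis. Over the 536 components at the floor r was 0.655, 0.639 and 0.687. All are correlations across components, which share their libraries, and are descriptions. Together the 84 components held 4.37% ± 0.340 of the library TPM in P. chienii twigs (SD, n = 3), 4.23% ± 0.174 in A. argotaenia twigs and 3.62% ± 0.154 in T. grandis. The highest sum was in P. chienii for 30 of them, in A. argotaenia for 25 and in T. grandis for 29.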

How the data were processed

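Transcript levels of 9 RNA-seq libraries, 3 per species, were read from 1 table per library. Per the labels, RNA was extracted with Trizol and libraries followed standard Illumina protocols. The deposited values carry 2 decimals and were taken as TPM because every library sums to between 999890 and 999947. Trinity is named per the labels; the libraries assembled, the quantifier, versions and filters were not given in the sources used here. Depth is unknown, so no counting interval was computed.

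Species and replicate numbers came from the titles. Species means, component sums, leaders and shares came from Python 3.11.15 and pandas 2.3.3, with figures drawn with matplotlib 3.10.9. The components and comparisons were chosen with earlier results of these data known. limma 3.58.1 in R 4.3.3 was fitted with an intensity trend to log2(TPM + 1) of component sums (39423 components) and of features (75926), each at 1 TPM or more in 3 or more libraries. All 9 libraries entered 1 fit, tests were two-sided, and fold changes refer to log2(TPM + 1), which understates changes of low levels. Components were named by rule: 6 with the highest mean, 4 rises and 4 falls of the sum called against both species (by the mean fold change), 3 rises and 3 falls of the shared leader, 4 with the closest species means, 3 with the highest share of each other leader, those next to each limit and 2 with the most features. Others were named after their values were seen: TRINITY_DN44357_c0, TRINITY_DN43149_c0, and those named for a low library share, a variable library or an abundant feature that led nowhere. The tests were checked on simulated data. Of log2 changes of 1.5, 68.7% were called in the right direction for sums and 49.3% for features. Of log2 changes of 3 the shares were 87.9% and 92.4%. False calls among unchanged rows numbered 12 for sums and 17 for features. The simulations held 39423 and 75926 rows, with 200 changed in each. Changed rows could lie below the 100 TPM floor of the rule. Simulated libraries varied independently, so libraries that deviate together are not covered. Unchanged rows had the same mean in all species, so the simulation does not cover shared leaders that are low in P. chienii. Alternatives covered the rule, the pseudocount, filter, scaling, variance model, samples, replicate block and minimum fold.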

Additional observations from a re-analysis of the deposited data

How the results depend on the processing

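The number of components chosen by the rule was 84 and moved with the floor: 532 at 10 TPM, 351 at 20 TPM (both added after seeing the data), 161 at 50 TPM and 30 at 200 TPM. Leaving out 1 library gave 81 to 87. Counts of called components moved with the minimum fold and with the size of the set. The set held 161 components at 50 TPM, 30 at 200 TPM and 57 with the rule met in each library, against 84. Counts at these settings thus have other denominators. Shares over all components at the other settings are not given, so nothing particular to the 84 is read from the counts. For sums of P. chienii against A. argotaenia (26) they were 48 with no minimum fold, 7 at 4-fold, 50 at the 50 TPM floor, 10 at 200 TPM and 17 with the rule met in each library. For P. chienii against T. grandis (29) they were 53, 8, 61, 11 and 16 in that order of settings, and for A. argotaenia against T. grandis (20) they were 42, 4, 48, 10 and 13. Sums higher in P. chienii than in both others (11) numbered 19, 2, 19, 4 and 7, and lower ones (5) numbered 13, 2, 12, 2 and 3. The shared leader in A. argotaenia against T. grandis (13) was called in 4 at 4-fold, 40 at 50 TPM, 6 at 200 TPM, 8 with the rule met in each library and 7 with a pseudocount of 0.1. Leaving out 1 library gave 7 to 20 for it, and 21 without the 3 libraries that correlated least with their species, a setting added after seeing the data. The cause of these moves for the leader was not tested beyond the fit on 2 species. Leaving out 1 library gave 25 to 29, 27 to 31 and 20 to 22 calls for the sums of the 3 comparisons. No called component changed sign under the 17 settings compared for direction, which were 2 pseudocounts, 2 scalings, the replicate block, no trend, 2 species alone and libraries left out. The median over the 84 sums for A. argotaenia against T. grandis was -0.13 and turned to 0.01 after quantile normalization. Deviations of libraries with the same number from their species means correlated at r from -0.36 to 0.24 over 9 pairs. P. chienii replicate 1, A. argotaenia replicate 2 and T. grandis replicate 3 deviated together, with r between 0.370 and 0.476. The cause of this was not tested. With 3 libraries per species these deviations cannot tell whether the numbers pair libraries. With the replicate block the calls were 26, 29 and 20 for the sums and 15 for the leader. Depth is unknown and limits what can be said of levels near 0.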
